A study of Mus musculus with 4 samples.

Results

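The Kruppel-like factors (Klf genes) examined here are 10 mouse transcription factor genes, Klf2, Klf3, Klf4, Klf5, Klf6, Klf7, Klf9, Klf10, Klf13 and Klf16. They were taken by symbol from a transcript table of day 5 cardiac progenitor cells (CPCs), and for each gene the transcript with the highest product of mean RPKM (a read count divided by transcript length and library depth) and length was kept. All 10 were found, among 17 Klf genes and 20701 gene symbols in the table. Klf2, Klf4 and Klf6 are known as genes that stimuli induce quickly, and the question put to the data was whether these 3 behaved unlike the other 7 when Baf60c was depleted. Baf60c, encoded by Smarcd3, is a subunit of the chromatin remodelling complex SWI/SNF that is abundant in heart. The control group was E14 Tg(Nkx2-5-EmGFP) embryonic stem cells (ESCs), which carry a green fluorescent reporter of the cardiac gene Nkx2-5. The knockdown (KD) group was the same reporter line stably carrying a short hairpin RNA construct against Baf60c. The study's methods describe a pLKO control construct, delivered by lentivirus and followed by puromycin like the hairpins, while the labels of the control libraries name no construct. Both were differentiated towards CPCs with BMP4, Activin A, VEGF, bFGF and FGF10 and sorted for Nkx2-5-GFP+ cells at day 5, with 2 libraries per group. The stem cells had been kept on feeder fibroblasts, the sort removes cells without the reporter, and the sources speak of pools of ESCs without saying which library came from which. The spread between libraries may therefore be technical in part.

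Klf proteins bind GC-rich and CACCC sequences through zinc fingers at their carboxyl end, and the rest of each protein decides whether it activates or represses. Klf2, Klf4, Klf5, Klf6 and Klf7 act mostly as activators. Klf3 recruits the corepressor CtBP, and Klf9, Klf10, Klf13 and Klf16 bind the corepressor Sin3a. In the heart and vessels the family is known for control of endothelial quiescence, smooth muscle phenotype and cardiac metabolism.

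The knockdown was seen in the target first. Smarcd3 stood at 173.9 and 166.8 RPKM in control and at 46.4 and 46.3 RPKM in Baf60c KD, a log2 fold change of −1.85 (SE 0.030). The libraries held 22064092 to 30398452 reads summed over transcripts. By the test given below, 18.2% of all genes tested were lower and 36.1% higher in Baf60c KD. Of the 10 cardiac genes examined as markers, 8 were lower and 2 higher. Their summed level went from 2922 and 2875 to 1281 and 1297 RPKM. Most of that sum is Actc1 (1410 and 1341 to 429.2 and 424.7 RPKM), Tnnt2 (809.5 and 819.2 to 437.7 and 460.6 RPKM) and Myh6 (435.8 and 444.6 to 95.8 and 95.3 RPKM). Actc1, Tnnt2 and Myh6 encode parts of the contractile apparatus, so the sum says little of the transcription factors in the list. Of those, Tbx5 (log2 fold change −0.48), Nkx2-5 (−0.46), Isl1 (−0.13) and Mef2c (−0.13) were lower. Hand2 (1.27) and Gata4 (0.39) were the higher ones. Genes of other cell types moved too, in the endothelial, fibroblast and smooth muscle lists in both directions. The summed level of 12 endothelial genes went from 43.1 and 40.8 to 63.6 and 66.0 RPKM, of 9 blood genes from 6.18 and 6.67 to 21.2 and 22.1 RPKM, of 5 epicardial genes from 3.80 and 4.66 to 20.3 and 18.8 RPKM, of 8 fibroblast or feeder genes from 54.5 and 55.8 to 67.4 and 69.0 RPKM, and of 12 pluripotency genes from 5.81 and 5.87 to 9.58 and 10.2 RPKM. The rise of the endothelial sum was mostly that of Tek, from 2.13 and 1.86 to 15.5 and 15.6 RPKM, of Egfl7 and of Kdr, while Cdh5, Tie1, Esam and Plvap were called lower. In the fibroblast list Col1a1, Col1a2, Col3a1 and Postn were called higher. Postn had a control mean of 0.070 RPKM, under the filter of 0.5 RPKM, and entered the test through the KD libraries. Pdgfra, the most abundant gene of that list, fell from 41.9 and 42.5 to 33.4 and 35.3 RPKM. The pluripotency sum was mostly Tbx3, at 4.42 and 4.76 in control and 6.25 and 6.36 RPKM in KD. Sox2 added to its rise, from 0.140 and 0.0736 to 1.43 and 1.70 RPKM, and entered the test through the KD libraries. The other 10 genes of that list were below the filter. The sum of 5 smooth muscle genes went from 1122 and 1116 to 793.2 and 786.8 RPKM and was mostly Acta2 (962.3 and 956.8 to 633.6 and 629.5 RPKM). Myh11 and Cnn1 were lower as well, Tagln was higher (78.9 and 78.7 to 112.6 and 110.4 RPKM) and Smtn did not pass the test. The rise of the blood sum was mostly that of the globin genes Hbb-bh1 (2.99 and 2.77 to 10.3 and 12.2 RPKM) and Hba-x (1.16 and 1.98 to 7.84 and 7.24 RPKM). Tal1 was called higher as well, 1 blood gene did not pass the test and 5 were below the filter. The blood marker Ptprc and the pluripotency marker Dppa3 had no read in any library. The part of these cell types in the Klf results was not tested, and in bulk libraries fewer cells of a type cannot be told apart from less RNA per cell.

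All 10 Klf genes passed the filter of a mean of 0.5 RPKM and the test, 8 lower and 2 higher in Baf60c KD. The test was limma on log2(RPKM + 1), and a gene was called at a Benjamini-Hochberg adjusted p under 0.05 over all 11371 genes tested. Over all these genes 54.3% were called, 18.2% as lower and 36.1% as higher, so that being called at all was common while being lower was not. The number depends on the scaling of the libraries: 2072 genes were lower and 4103 higher here, against 2892 and 2930 with median-ratio factors. The libraries of the groups overlapped for none of the 10. Both KD libraries lay below both controls for 27.8% of all genes tested and above them for 49.6%. The median log2 fold change was −0.42 over the 10 Klf genes and 0.07 over all genes tested. Summed over the 10, the level was 107.5 and 110.6 RPKM in control and 83.0 and 80.6 RPKM in Baf60c KD.

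**Figure D1:**
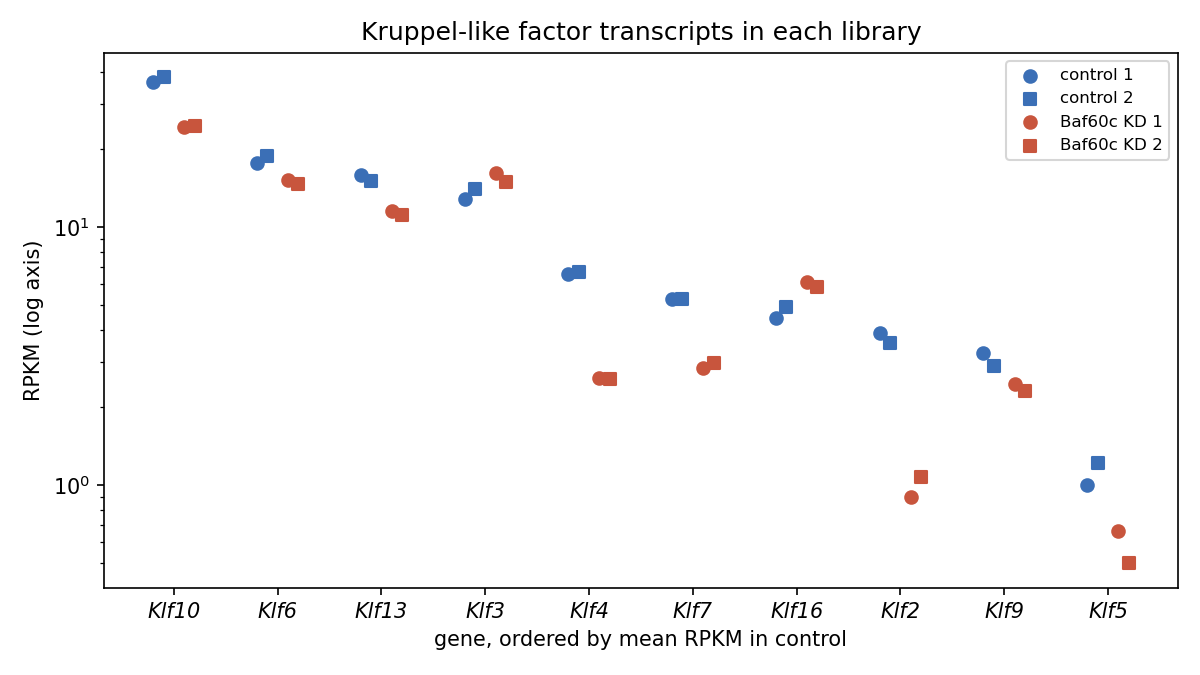
RPKM of each Klf gene in each of the 4 libraries on a log axis, with genes ordered by their control mean, control libraries in blue and Baf60c KD libraries in red. KD points lie below control points for 8 genes and above them for Klf3 and Klf16, and the widest gap is that of Klf2, at 3.90 and 3.55 against 0.899 and 1.07 RPKM.

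Klf2 and Klf4 fell most, and they are the members known best from blood flow sensing in endothelium and from pluripotency. Klf2 measured 3.90 and 3.55 RPKM in control and 0.899 and 1.07 RPKM in Baf60c KD. Both KD libraries were thus far below both controls, at a mean of 0.986 ± 0.122 against 3.73 ± 0.243 RPKM (SD, n = 2 each), which is 3.78-fold lower. The log2 fold change of RPKM + 1 was −1.25 (SE 0.078, adjusted p = 1.15e-06 with limma), and 80 of the genes tested, 0.704%, had a lower one. Adding 1 before the logarithm understates the change of a gene this low, and limma-voom on the recovered reads gave −1.90. These values rest on 164 and 142 reads in control and on 37 and 59 reads in KD, and the ratio of the depth-scaled reads, control over KD, had a 95% exact interval for counting error of 2.96 to 4.75.

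Klf4, a gene also used to reprogram cells to pluripotency, measured 6.59 and 6.70 RPKM in control and 2.59 and 2.58 RPKM in Baf60c KD. The replicates of each group almost coincided and the groups lay far apart. The mean was 2.57-fold lower, with a log2 fold change of −1.09 (SE 0.058, adjusted p = 3.81e-07), below which 1.00% of the genes tested were found. Klf2 and Klf4 were the only members past a 2-fold fall on this scale, which 1.26% of all genes tested passed with a call.

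Klf2 and Klf4 resemble each other in sequence as well. A search of the coding transcripts of GENCODE M1 for the zinc finger pattern (cysteine pair, then histidine pair) found 3 fingers over 81 residues in each of the 10 genes. Over that stretch Klf2 and Klf4 had 91.4% identical residues, and Klf6 and Klf7 had 95.1%, the highest share of any pair. The bases that encode the last finger and the linker before it are shown for both pairs and for Klf10, the most abundant member. The stretch was chosen because it is where the family is recognised and where reads could be confused between members. The codons of the cysteines and histidines that hold the zinc ion are in capitals. Positions are in mm9, and the stretches of Klf6 and Klf7 are interrupted by an intron.
Klf2 (chr8:74844729-74844812, plus strand): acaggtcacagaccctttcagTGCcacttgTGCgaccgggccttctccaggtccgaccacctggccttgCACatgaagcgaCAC
Klf4 (chr4:55541003-55541086, minus strand): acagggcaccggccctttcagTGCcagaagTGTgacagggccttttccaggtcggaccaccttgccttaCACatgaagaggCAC
Klf6 (chr13:5865971-5866523, plus strand): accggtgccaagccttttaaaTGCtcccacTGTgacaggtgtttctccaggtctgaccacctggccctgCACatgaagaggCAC
Klf7 (chr1:64082293-64088925, minus strand): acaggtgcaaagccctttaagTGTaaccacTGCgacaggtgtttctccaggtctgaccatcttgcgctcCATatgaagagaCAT
Klf10 (chr15:38225750-38225833, minus strand): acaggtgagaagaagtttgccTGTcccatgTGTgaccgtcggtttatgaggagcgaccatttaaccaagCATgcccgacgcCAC
The capitals fall at the same places in all 5, while the bases between them differ. The longest run of identical bases between the transcripts of any pair of members was 26 bases, found for Klf6 and Klf7, and it was 14 bases for Klf2 and Klf4. Klf6 and Klf7, the still more similar pair, were both called lower too, by less than Klf2 and Klf4.

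Klf6, a widely expressed activator, changed little. It measured 17.7 and 18.9 RPKM in control and 15.3 and 14.6 RPKM in Baf60c KD. The groups did not overlap, but the mean was only 1.22-fold lower, with a log2 fold change of −0.27 (SE 0.046, adjusted p = 0.000842). A lower value was found for 10.1% of all genes tested, so that Klf6 was far from the extreme occupied by Klf2 and Klf4.

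Klf7, known from the developing nervous system, fell more than Klf6. It measured 5.28 and 5.26 RPKM in control and 2.85 and 2.97 RPKM in Baf60c KD, 1.81-fold lower, with a log2 fold change of −0.68 (SE 0.059, adjusted p = 1.16e-05). The groups were well apart, with 163 and 154 reads in control and 86 and 120 in KD. Reads were counted without regard to strand, and the annotated exons of Klf7 share 3202 bases with Gm17427 and Gm13748 on the opposite strand. The transcript used by the authors has 1328 bases against 8133 exon bases annotated for the gene, so its RPKM is less certain as a level than that of the others. The other 9 members share no exon bases with another annotated gene.

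Klf5, a regulator of smooth muscle and epithelial growth, was the lowest member. It measured 1.00 and 1.21 RPKM in control and 0.666 and 0.498 RPKM in Baf60c KD. The groups did not overlap, and 86 reads in control and 52 in KD in all stand behind these values. The log2 fold change was −0.41 (SE 0.090, adjusted p = 0.00359) and limma-voom gave −0.95. The interval of its ratio of depth-scaled reads, control over KD, was wide, from 1.36 to 2.79. Over the 5 activators the median log2 fold change was −0.68.

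**Figure D2:**
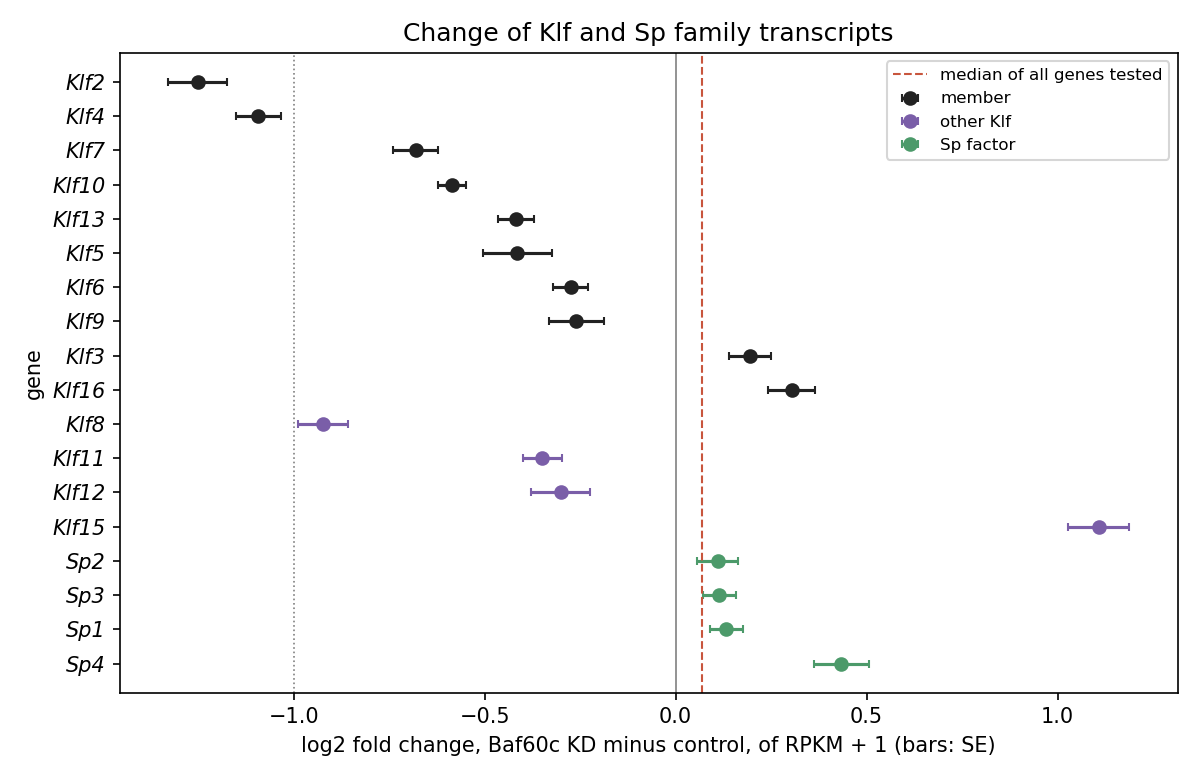
Log2 fold change of RPKM + 1, Baf60c KD minus control, with its standard error from limma, for the 10 members, the 4 other Klf genes tested and the 4 Sp genes tested. The dashed line is the median of all genes tested (0.07) and the dotted line a 2-fold fall, which only Klf2 and Klf4 pass, while Klf15 lies on the far side at 1.11.

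The repressors were divided. Klf3, which works through CtBP, measured 12.9 and 14.0 RPKM in control and 16.2 and 14.9 RPKM in Baf60c KD. The groups were separate by less than 1 RPKM, and the log2 fold change was 0.19 (SE 0.055, adjusted p = 0.0135). The call did not hold with median-ratio factors (0.12, adjusted p = 0.0948), without control replicate 1 (0.14, adjusted p = 0.0582) or without Baf60c KD replicate 1 (0.14, adjusted p = 0.0787).

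Among the Sin3a-binding members, Klf10, an early response gene of TGF-beta signalling, was the most abundant Klf transcript in all 4 libraries. It measured 36.5 and 38.1 RPKM in control and 24.4 and 24.6 RPKM in Baf60c KD, 1.52-fold lower. The log2 fold change was −0.58 (SE 0.037, adjusted p = 1.36e-06), and 3.53% of all genes tested lay lower. On this scale the fall was behind those of Klf2, Klf4 and Klf7. Klf5 also fell further than Klf10 as a ratio of mean RPKM (1.90-fold) and with limma-voom (−0.95 against −0.60). A shorter Klf10 transcript in the table, looked at after these values were seen, gave −0.55. Klf10 made up 33.9% and 34.4% of the summed level of the 10 in control and 29.4% and 30.5% in Baf60c KD.

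Klf13, which in Xenopus works with Gata4 in heart development, measured 16.0 and 15.1 RPKM in control and 11.6 and 11.1 RPKM in Baf60c KD. Both KD libraries lay below both controls, with a log2 fold change of −0.42 (SE 0.047, adjusted p = 6.52e-05). Gata4 itself was higher, at 59.8 and 57.5 RPKM in control and 76.9 and 76.9 RPKM in KD.

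Klf9, a gene induced by thyroid hormone and glucocorticoids, measured 3.25 and 2.89 RPKM in control and 2.47 and 2.32 RPKM in Baf60c KD. The gap between the groups was close to the gap between the controls, and the log2 fold change was −0.26 (SE 0.072, adjusted p = 0.0129). It was not called without control replicate 1 (−0.20, adjusted p = 0.0669) or without Baf60c KD replicate 2 (−0.23, adjusted p = 0.0536). Klf16 was the clearest rise, from 4.45 and 4.90 RPKM in control to 6.15 and 5.85 RPKM in KD, with a log2 fold change of 0.30 (SE 0.062, adjusted p = 0.00248). It was called under every alternative run. The median over these 4 Sin3a-binding genes was −0.34.

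Within the split into Klf2, Klf4 and Klf6 against the other 7, Klf6 did not move with Klf2 and Klf4. The median log2 fold change was −1.09 for the 3 genes (range −1.25 to −0.27) and −0.41 for the other 7 (range −0.68 to 0.30). On this scale 4 of those 7, Klf5, Klf7, Klf10 and Klf13, fell further than Klf6. Klf9 also fell further than Klf6 as a ratio of mean RPKM, control over KD (1.28 against 1.22). With limma-voom Klf9 stood at −0.36 and Klf6 at −0.29. A ratio within a library does not depend on how libraries are scaled. The log2 ratio of Klf2 to the mean log2 RPKM of the other 7 was −0.77 and −0.95 in control and −2.58 and −2.23 in Baf60c KD. For Klf4 it was −0.01 and −0.04 in control and −1.05 and −0.97 in KD. For Klf6 it was 1.41 and 1.46 in control and 1.50 and 1.54 in KD. Relative to the other 7, then, Klf2 and Klf4 were lower in both KD libraries, while Klf6 differed little. The mean of the other 7 gives equal weight to Klf5, which had 40 and 46 reads in control and 26 in each KD library. A shift as small as that of Klf6 can rest on that gene, so no rise of Klf6 is read from these ratios. With 2 libraries against 2 these ratios are given as a description with no test.

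**Figure D3:**
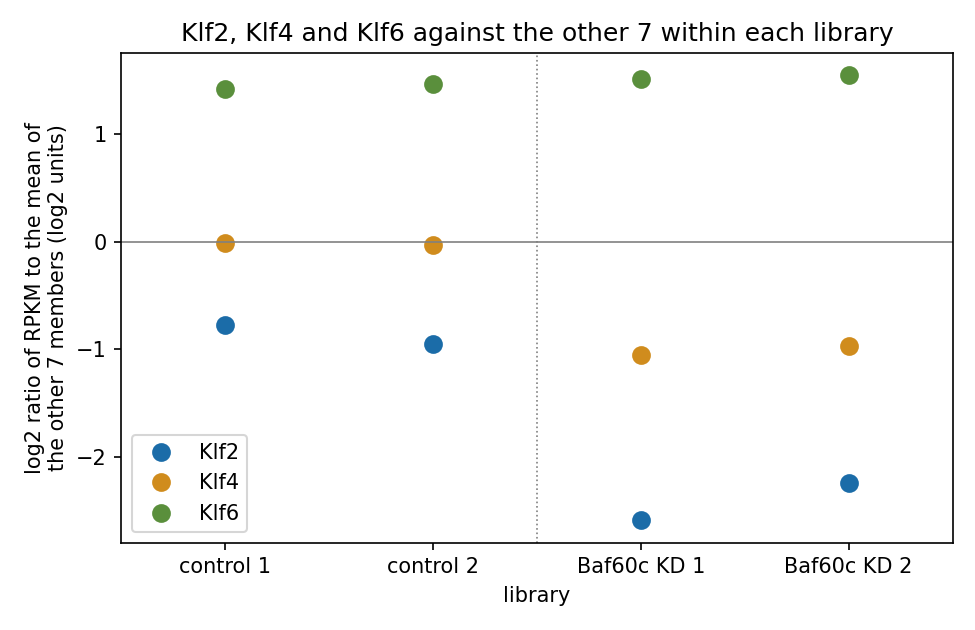
Log2 ratio of the RPKM of Klf2, Klf4 and Klf6 to the mean log2 RPKM of the other 7 members, 1 point per gene and library, with controls left of the dotted line. Klf2 drops from −0.77 and −0.95 to −2.58 and −2.23, Klf4 from near 0 to about −1, and Klf6 stays between 1.41 and 1.54.

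The order of the levels changed with the fall of Klf2 and Klf4. In both control libraries the order from high to low was Klf10, Klf6, Klf13, Klf3, Klf4, Klf7, Klf16, Klf2, Klf9 and Klf5, and no neighbours overlapped between the libraries. In both KD libraries it was Klf10, Klf3, Klf6, Klf13, Klf16, Klf7, Klf4, Klf9, Klf2 and Klf5. Klf3 and Klf6 overlapped there (16.2 and 14.9 against 15.3 and 14.6 RPKM), and the other neighbours did not. Klf3 moved up from rank 4 to 2, and Klf4 moved down from rank 5 to 7. The log2 ratio of Klf2 to Klf4 fell from −0.76 and −0.91 to −1.53 and −1.27, so that Klf2 lost more than Klf4.

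The promoters of Klf2, Klf4 and Klf6 are shown because the first of these genes has a described input from MEF2 factors, muscle and endothelial regulators that the kinases MEK5 and ERK5 activate. The RefSeq promoter table, in the build GRCm38.p6 and not in the mm9 build of the expression table, matched 7 of the 10 members and had no entry for Klf5, Klf10 and Klf16. The 250 bases before the start site were searched on both strands for the TATA box (TATAAA), the GC box of Sp and Klf factors (GGGCGG), the shorter Klf site (CACCC), the AP-1 motif of Fos and Jun (TGANTCA), the cyclic AMP response element (TGACGTCA), the MEF2 motif and the CArG box bound by SRF. The MEF2 motif was read as CTA, any 4 bases and TAG. Capitals in the windows mark GC boxes and MEF2 motifs.
Klf2 (chr8:72318812-72319061, plus strand): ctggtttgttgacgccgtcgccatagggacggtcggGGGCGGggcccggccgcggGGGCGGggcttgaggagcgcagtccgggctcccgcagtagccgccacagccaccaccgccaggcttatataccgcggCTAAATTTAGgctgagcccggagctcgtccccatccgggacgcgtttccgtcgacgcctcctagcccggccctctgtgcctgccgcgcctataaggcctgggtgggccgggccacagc
Klf4 (chr4:55532476-55532725, minus strand): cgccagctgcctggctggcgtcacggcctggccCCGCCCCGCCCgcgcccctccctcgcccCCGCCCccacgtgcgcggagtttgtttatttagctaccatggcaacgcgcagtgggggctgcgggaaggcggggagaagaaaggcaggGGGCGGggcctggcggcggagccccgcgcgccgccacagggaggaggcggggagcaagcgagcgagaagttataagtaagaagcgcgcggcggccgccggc
Klf6 (chr13:5861239-5861488, plus strand): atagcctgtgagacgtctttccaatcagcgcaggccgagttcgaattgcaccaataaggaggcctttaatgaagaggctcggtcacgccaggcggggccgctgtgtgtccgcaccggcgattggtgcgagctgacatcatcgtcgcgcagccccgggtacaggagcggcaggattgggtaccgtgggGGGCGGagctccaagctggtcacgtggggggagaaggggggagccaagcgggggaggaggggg
Klf2 holds 1 match to the MEF2 motif, CTAAATTTAG, from 118 to 109 bases before the start site, a motif present in 3.20% of the 32851 windows of the table. None of the other 6 members holds it in this window. The GC box was found in 6 of the 7, with 2 matches in Klf2, 4 in Klf4, 6 in Klf3, 3 in Klf13 and 1 each in Klf6 and Klf7, against 32.7% of all windows. The windows of the 7 members are also richer in G and C, from 59.2% in Klf7 to 78.4% in Klf3, against a median of 52.4% over all windows. The CACCC site was found in 5 of the 7, all but Klf4 and Klf6, against 52.0% of all windows. The AP-1 motif occurred in Klf9 alone (6.75% of all windows), and the TATA box (12.4%), the cyclic AMP response element (1.55%) and the CArG box (1.47%) in none. A match describes letters and not binding, and no match says nothing about a factor.

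All 12 genes listed on the route from the MEK5 and ERK5 kinases and the CCM complex to Klf2 and Klf4 were tested. Of these, 7 were lower and 4 higher, against 18.2% lower and 36.1% higher among all genes tested. The median log2 fold change of the 12 was −0.14. All 4 MEF2 genes were among the lower ones. Mef2b went from 9.24 and 8.22 to 3.57 and 3.19 RPKM (log2 fold change −1.15), Mef2a from 15.9 and 17.4 to 10.1 and 10.5 RPKM (−0.65), and Mef2d from 20.6 and 20.2 to 15.5 and 15.5 RPKM (−0.38). Mef2c, the most abundant, changed little (74.6 and 75.9 against 68.3 and 69.5 RPKM). The kinase gene Mapk7, which encodes ERK5, was higher (0.30), as were Heg1 (0.50), a receptor linked to the CCM complex, and the mechanosensitive channel gene Piezo1 (0.48). Levels of these messages say nothing of kinase activity, and whether any of them bears on Klf2 or Klf4 was not tested.

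Immediate-early genes, which cells switch on within minutes of a stimulus and with which Klf2, Klf4, Klf6 and Klf10 are often listed, were lower as a majority. Of 26 listed, 23 were tested, 15 were lower and 5 higher, against 18.2% lower and 36.1% higher among all genes tested. Their median log2 fold change was −0.44. The higher ones numbered 3 with median-ratio factors and 3 without Baf60c KD replicate 1. Their summed level was 423.0 and 410.0 RPKM in control and 214.9 and 209.5 RPKM in Baf60c KD. Fosb went from 58.6 and 55.9 to 10.8 and 10.6 RPKM (−2.31), Fos from 101.6 and 100.4 to 29.1 and 27.6 RPKM (−1.80), and Egr1 from 44.9 and 45.2 to 12.5 and 13.0 RPKM (−1.74). On this scale each fell further than Klf2, which is low and shrunk more by the added 1. As plain ratios of mean RPKM, control over KD, Fosb stood at 5.35, Fos at 3.57 and Egr1 at 3.53, with Klf2 at 3.78 between Fosb and the other two. Ctgf (0.74), Myc (0.64) and Cyr61 (0.43) were higher. Such genes are also known to respond to the dissociation and sorting of cells, and the part of handling in the Klf2 and Klf4 values was not tested.

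SRF, the serum response factor, and its cofactors drive many of the same early genes. Of 7 genes, all tested, 3 were lower and 3 higher, against 18.2% lower and 36.1% higher among all genes tested. Myocd, the cardiac and smooth muscle coactivator, was lower (42.9 and 45.2 against 26.5 and 27.2 RPKM, log2 fold change −0.69), followed by Elk4 (−0.29) and Srf itself (−0.15). Elk4 was not called without Baf60c KD replicate 1 (−0.20, adjusted p = 0.130). Elk1 (0.27), Elk3 (0.22) and Mkl2 (0.19) were higher, and with median-ratio factors Elk1 alone of these 3 was called. Elk3 was also not called without control replicate 2 or Baf60c KD replicate 2, nor Mkl2 without Baf60c KD replicate 1.

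**Figure D4:**
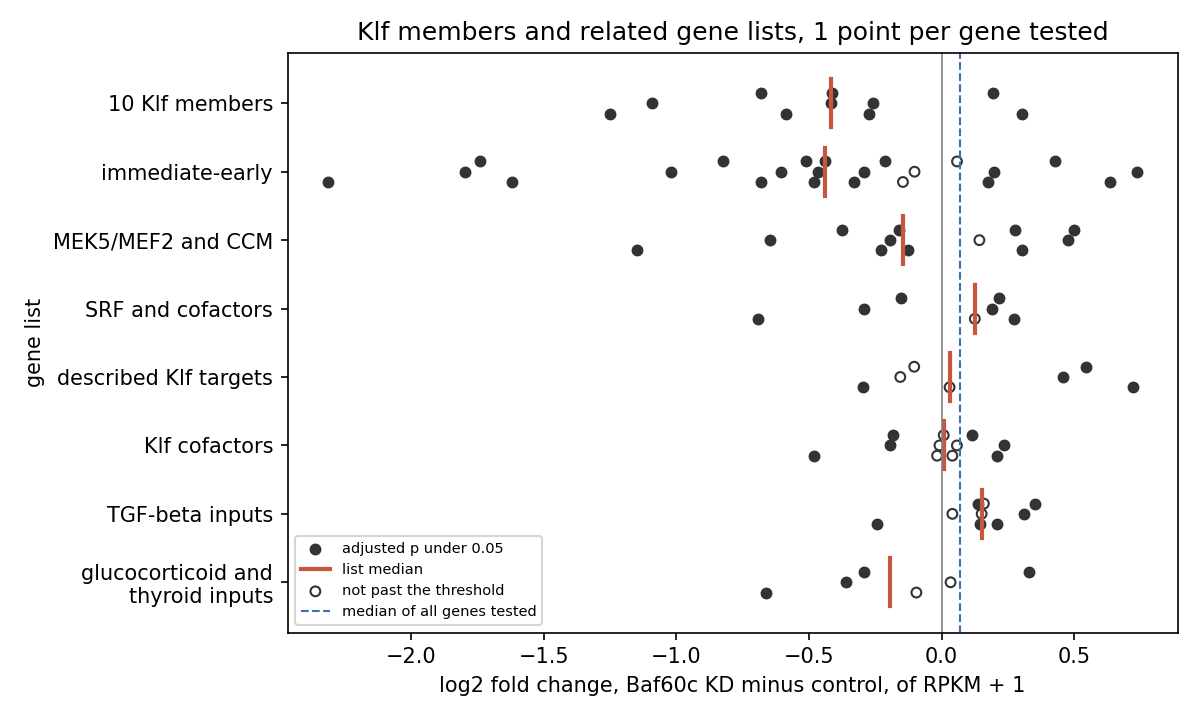
Log2 fold change of RPKM + 1 for the 10 Klf genes and for 7 lists of related genes, 1 point per gene tested, filled where the adjusted p was under 0.05. Red bars mark list medians, which are lowest for the immediate-early genes (−0.44) and the Klf genes (−0.42), and the dashed line is the median of all genes tested (0.07).

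Described targets of Klf2, Klf4 and Klf6 moved in both directions. So did all genes tested, 18.2% lower and 36.1% higher. The list does not separate targets that these factors activate from targets that they repress, so their following of the Klf genes was not tested. Of 10 listed, 7 passed the filter, 1 was lower (2 without Baf60c KD replicate 1) and 3 higher, and the endothelial target Thbd stayed under 0.128 RPKM in every library. S1pr1, a receptor gene activated by Klf2, was lower (1.18 and 1.35 against 0.844 and 0.837 RPKM, log2 fold change −0.30). Kdr (0.72), Vcam1 (0.55) and Ccnd1 (0.46) were higher. Endothelial markers were likewise divided, 4 lower and 5 higher of 10 tested, with Cdh5 at −0.51, Tie1 at −0.40 and Esam at −0.39, and Tek at 2.47, Kdr at 0.72 and Pecam1 at 0.51.

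Cofactors through which the family works changed little. Of 11 genes for corepressors, coactivators and turnover, 3 were lower and 3 higher, and the median was 0.01. The share called was thus close to the 54.3% of all genes tested. The acetyltransferase genes Kat2b (−0.48), Ep300 (−0.19) and Crebbp (−0.18) were the lower ones. Crebbp was not called without control replicate 2, without Baf60c KD replicate 1 or without Baf60c KD replicate 2 (largest adjusted p = 0.0953). The higher ones, Fbxw7 (0.24), Hdac1 (0.21) and Sin3a (0.11), were not called with median-ratio factors, Sin3a was not called without control replicate 1, without Baf60c KD replicate 1 or without Baf60c KD replicate 2, and 1 of the 3 was called without control replicate 2 or without Baf60c KD replicate 2. The signals known to induce Klf10 and Klf9 were mixed as well, as were all genes tested (18.2% lower, 36.1% higher). Of 9 TGF-beta genes, 5 were higher (3 with median-ratio factors) and 1 lower, with Tgfb3 at 0.35 (its control mean is under the filter), Tgfb1 at 0.31 and Skil at 0.21, and Ltbp1 at −0.24, while Klf10 fell. Of 6 glucocorticoid and thyroid hormone genes tested of 8, Sgk1 (−0.66), the receptor gene Nr3c1 (−0.36) and Tsc22d3 (−0.29) were lower, as Klf9 was, and Fkbp5 (0.33) was higher. Of 6 adipogenic and lipid genes around Klf3, Klf5 and Klf7, 3 were tested, and Cebpb alone passed (1 further gene was called higher without Baf60c KD replicate 2), from 3.24 and 2.87 to 0.814 and 1.04 RPKM (−1.07). Fabp4 had no read.

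Other members of the family behaved as variably. Of 7 further Klf genes in the table, 4 passed the filter. Klf8, a CtBP-binding repressor like Klf3, fell from 4.99 and 5.04 to 2.07 and 2.29 RPKM, with a log2 fold change of −0.92 (SE 0.065, adjusted p = 2.75e-06), behind only Klf2 and Klf4 among the Klf genes tested. Klf12, of the same class, fell from 1.28 and 1.36 to 0.831 and 0.937 RPKM (−0.30), and was not called without Baf60c KD replicate 1 (−0.26, adjusted p = 0.0582). The CtBP-binding genes thus had values on both sides of 0. Klf11, a close relative of Klf10, fell from 12.6 and 12.4 to 9.99 and 9.23 RPKM (−0.35). Klf15, a regulator of cardiac metabolism, rose from 0.489 and 0.475 to 2.04 and 2.36 RPKM, a log2 fold change of 1.11. Its control mean is under the filter, so that it entered the test through the KD libraries. In the fit with no filter on low values its adjusted p was 0.000161 (limma). The related Sp genes, which bind the same GC-rich sites, showed no fall, where 36.1% of all genes tested were called higher. Of 4 tested, Sp4 (0.43), Sp1 (0.13) and Sp3 (0.11) were called higher, and 1 call was left with median-ratio factors, without control replicate 1 or without Baf60c KD replicate 2.

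**Figure D5:**
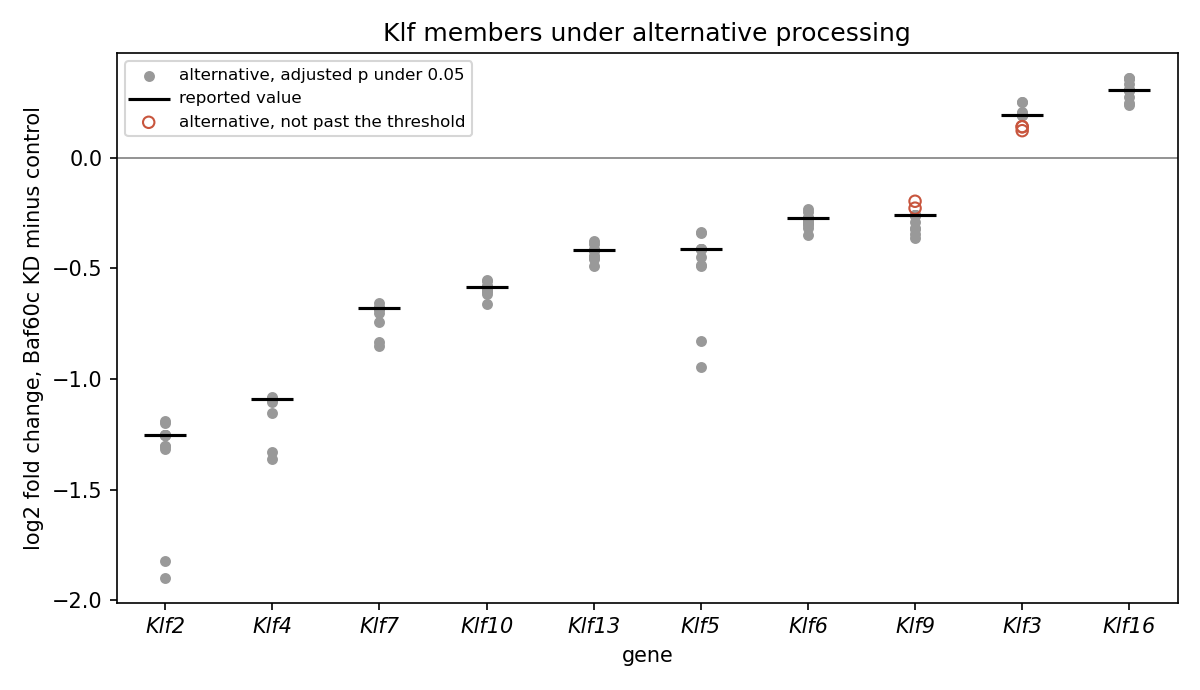
Log2 fold change of each of the 10 Klf genes as reported (black bars) and under the alternative processing choices and with single libraries left out (grey points, open red where the adjusted p was 0.05 or more). No gene crosses 0, Klf2 reaches −1.90 and Klf5 −0.95 with limma-voom, and open points occur for Klf3 and Klf9 only.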

How the data were processed

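Polyadenylated RNA of sorted CPCs was sequenced after stranded library preparation, with 2 libraries per group as the sample labels give them. According to the study's methods, the authors mapped reads with STAR to mm9 and counted them over exons with HOMER, both strands accepted. The deposited values were RPKM, computed by the authors with edgeR, and tool versions are not given in the sources used here. Beside these, DESeq2 output of the authors was deposited, namely a log2 fold change, a p-value and a mean signal. None of the comparison columns was used. The table had 35707 rows, of which the last 4200 had been normalised separately, held no member and were left out.

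Multiplying RPKM by length and library total returned whole reads for 100% of values (tolerance 0.001 reads). One transcript per symbol was kept, by the highest mean of RPKM × length, and a mean of at least 0.5 RPKM was required. limma (version 3.58.1, R 4.3.3) was run on log2(RPKM + 1) with a variance trend, robust estimation and no covariate, and p-values were adjusted (Benjamini-Hochberg) over 11371 genes. The script was tested on simulated data. Reads summed over all transcripts were 22064092 to 30398452 per library, and the transcripts kept, 1 per symbol, held 12623031 to 17649363. Intervals (95%, exact) cover counting error only.

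Named genes were the 10 members, Smarcd3, and of each list the called genes with the largest change, at most 3 per direction, plus listed genes without reads. Mef2c and the other transcription factor genes of the cardiac list given as lower fall outside this rule. So do Thbd, Tnnt2, Egfl7, Plvap, Col1a2 and Smtn, and all of these were chosen with their values in view. The rule also takes Ttn and the epicardial genes Upk3b, Bnc1 and Wt1, which are not named in the Results. The members and lists were chosen with earlier results of these data known. Alternatives were a pseudocount of 0.1, no filter, a minimum of 50 mean reads, median-ratio factors, limma-voom on recovered reads, all or the longest transcripts, no trend or robust estimation, the replicate number as a block, and leaving out each library. The shorter Klf10 transcript was added after seeing the data. Gene positions come from GENCODE M1 and promoters from RefSeq (GRCm38.p6).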

Additional observations from a re-analysis of the deposited data

How the results depend on the processing

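No log2 fold change of a member, of Smarcd3 or of a gene taken by the naming rule reversed. The genes named outside that rule were not followed through the alternatives. Over all genes, the count past a 2-fold fall was 143, against 245 with a pseudocount of 0.1, 274 with limma-voom on recovered reads and 218 with all transcripts kept. Keeping all transcripts gave 10317 changed features, 3572 lower and 6745 higher, a difference that comes from the larger number of rows tested. The median of Klf2, Klf4 and Klf6 was −1.33 with a pseudocount of 0.1, −1.15 with median-ratio factors and −1.36 with limma-voom. That of the other 7 was −0.34 with a minimum of 50 mean reads, which leaves out Klf5, and ranged from −0.44 to −0.34 without single libraries. The members called higher numbered 1 with median-ratio factors and ranged from 1 to 2 without single libraries, since Klf3 lost its call, and those called lower ranged from 7 to 8. Of 130 single-gene values for the members under alternatives, 5 missed the threshold, 3 of Klf3 and 2 of Klf9. Leaving out 1 library leaves an arm with a single sample, whose spread is then assumed to be like that of the other group. Replicate numbers did not pair the libraries (r = 0.02 over genes for the deviations of replicate 1 in both groups), and with the replicate block 6166 genes were called, 4093 higher and 2073 lower, with all 10 members called as before. Each group had 2 libraries, with 37 to 59 reads of Klf2 and 26 of Klf5 per KD library. The size of these changes is therefore uncertain, and the part of depth in this was not tested.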
